A study of Homo sapiens with 18 samples.

Results

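PRDM9 and 8 related genes of the PRDM family (PRDM7, PRDM1, PRDM2, PRDM4, PRDM10, PRDM11, PRDM15 and PRDM16) were followed by their symbols in a table of ATAC-Seq read counts with 54425 gene rows. ATAC-Seq sequences the fragments that a transposase cuts out of open chromatin, so a count is read as accessibility of chromatin at a gene and not as its transcription. It also depends on how reads were assigned to genes, which is not fully given in the sources used here. The genes were chosen by these counts: PRDM9 held unusually many counts compared with its paralog PRDM7 and the other family genes across settings and days. Its levels and differences are therefore given as a description, without a test. All 9 genes passed the filter on low counts, and the other 8 were tested.

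PRDM proteins pair a PR domain, which is related to the SET domain of histone methyltransferases, with zinc fingers that bind DNA. PRDM9 is normally made in germ cells entering meiosis, where its zinc fingers bind short motifs, its PR/SET domain trimethylates the histone residues H3K4 and H3K36, and the marked sites become hotspots of meiotic recombination. PRDM7 arose from PRDM9 by duplication in primates and has a shorter zinc-finger array, whereas the other members act mostly in somatic cells as repressors or activators of transcription.

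The cells were HEK293T, a human embryonic kidney line, transfected with Sleeping Beauty vectors that carry fusion genes of the t(4;11) leukemia translocation, in which MLL (KMT2A) is joined to AF4 (AFF1). MLL-AF4 cells had the inducible MLL-AF4 genotype, AF4-MLL cells the inducible AF4-MLL genotype, and co-expression cells constitutive MLL-AF4 plus inducible AF4-MLL. The labels call all these cells stably transfected, but by the study's methods the co-expression cells held only the MLL-AF4 vector stably, and their AF4-MLL plasmid was introduced transiently and lost once selection ended. Inducible transgenes were switched on by doxycycline at 1 µg/ml for 48 h and then off again, and every setting was sampled on day 3 and day 28 with 3 libraries, labelled as biological replicates, in each of the 6 groups. The populations were bulk cultures, no mock-transfected library was labelled, and p-values measure only the spread between these libraries.

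Total counts ran from 442159 to 3539937 per library (median 1254820), of which 297567 to 1116385 lay on nuclear genes. Mitochondrial genes took 32.7% to 45.61% of the counts on day 3 and 63.56% to 68.46% on day 28, so that time in culture and this share cannot be told apart. Normalised read counts (CPM, counts scaled to the TMM-adjusted library size) correct for a shift shared by most genes, but not for one that affects single genes. The 7 kidney lineage genes checked, PAX2, PAX8, LHX1, EMX2, EYA1, SALL1 and WT1, summed to 97.4 to 138.4 CPM per library, and 6 of them passed the filter. Of 8 blood genes 4 passed, with a summed 56.52 to 80.37 CPM, and CD3E, CD14, GATA1 and HBB had a mean under 3 counts. Of 8 germ cell genes (DDX4, DAZL, SYCP1, STRA8, TNP1, PRM1, ZPBP and BOLL) 0 passed, with a summed 8.98 to 20.52 CPM.

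The regions upstream of PRDM9 and PRDM7 are shown because reads from these paralogs can only be told apart where their sequences differ, and because they are the nearest promoter sequence to the counted genes. PRDM9 is annotated at chr5:23507155-23528093 and PRDM7 at chr16:90056566-90077331 in RefSeq GRCh38.p14. The window of PRDM9 is chr5:23507359-23507608 on the plus strand, within the annotated span, which begins further upstream. The window of PRDM7 is chr16:90077332-90077581 on the minus strand, directly before the gene. The RefSeq promoter table listed 8 of the 9 members. Each window holds the 250 bases before the listed start, written 5′ to 3′, with CCAAT boxes (CCAAT or its complement ATTGG) and GC boxes (GGGCGG or its complement CCGCCC) in capitals.
PRDM9: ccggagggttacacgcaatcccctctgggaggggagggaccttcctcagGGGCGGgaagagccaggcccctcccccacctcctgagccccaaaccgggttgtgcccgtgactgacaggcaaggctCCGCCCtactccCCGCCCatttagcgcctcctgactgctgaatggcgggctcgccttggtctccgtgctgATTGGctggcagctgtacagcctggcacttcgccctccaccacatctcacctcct
PRDM7: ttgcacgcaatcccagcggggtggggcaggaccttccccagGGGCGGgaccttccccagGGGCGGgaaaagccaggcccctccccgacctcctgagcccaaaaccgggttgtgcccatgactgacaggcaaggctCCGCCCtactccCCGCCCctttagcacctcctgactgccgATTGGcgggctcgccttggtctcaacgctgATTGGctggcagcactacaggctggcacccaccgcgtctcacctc
The windows were aligned without a penalty for gaps at their ends, and the unpaired end bases were left out. Over the remaining 258 columns they were identical in 210, differed by a base in 22 and had a gap in 26. This is 90.5% identity over the ungapped columns. The longest run without a difference was 36 bases. The window of PRDM9 held 1 CCAAT box and 3 GC boxes, and that of PRDM7 held 2 and 4. On either strand, a CCAAT box was found in 32% and a GC box in 42.6% of all 35116 windows of this length. G and C made up 66.0% of the PRDM9 window and 67.2% of the PRDM7 window, against a median of 58.0% over all windows, with 12 and 14 CpG dinucleotides against a median of 11. How reads that match both genes equally were counted is not given in the sources used here, so the split of reads between PRDM9 and PRDM7 is uncertain.

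PRDM9 had the highest count of 16 PRDM family genes in all 18 libraries. In MLL-AF4 cells its counts were 180, 159 and 145 on day 3 and 118, 166 and 120 on day 28. In AF4-MLL cells they were 224, 85 and 176 on day 3 and 208, 219 and 167 on day 28. In co-expression cells they were 165, 168 and 161 on day 3 and 200, 149 and 64 on day 28. The lowest counts, 85 and 64, came from libraries with 297567 and 376209 nuclear counts. The MLL-AF4 libraries of day 3 had 352673 to 398640 nuclear counts and held 145 to 180 counts of PRDM9. The part of depth in these counts was not tested. Except in co-expression cells on day 3, the CPM values given further on were relatively closer together within each group.

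PRDM7, the paralog, had 2 to 16 counts per library. Its counts were 3, 2 and 8 in MLL-AF4 cells on day 3 and 13, 14 and 5 on day 28. They were 14, 3 and 5 in AF4-MLL cells on day 3 and 11, 7 and 7 on day 28. They were 8, 7 and 8 in co-expression cells on day 3 and 16, 7 and 3 on day 28. The count of PRDM9 was 9.08 to 79.5 times that of PRDM7 in the same library, and the extremes of this ratio rest on the few PRDM7 counts.

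**Figure D1:**
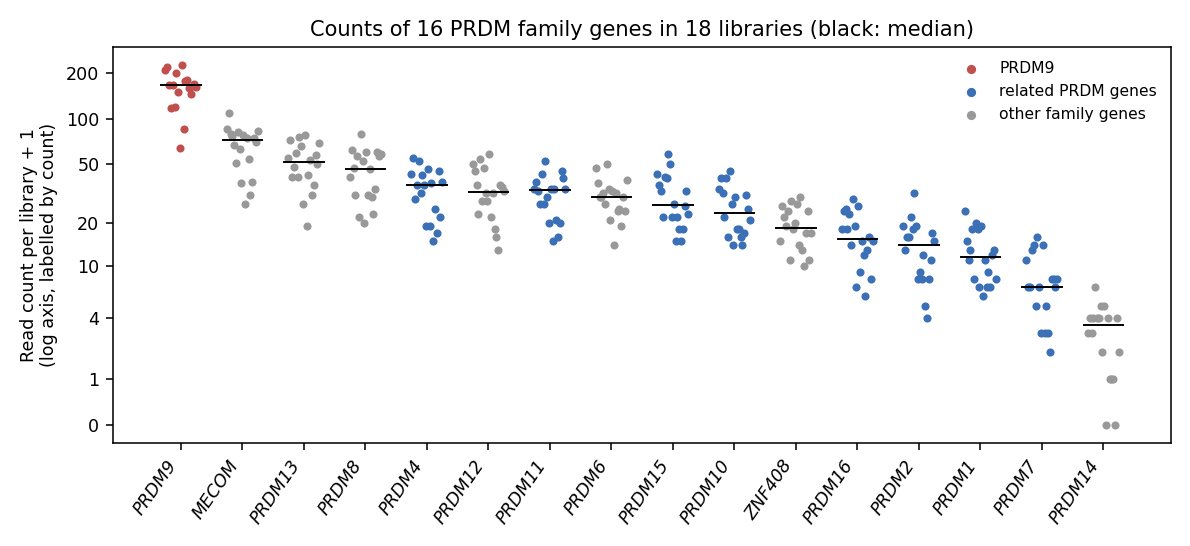
Read counts of 16 PRDM family genes on a log axis (count + 1, labelled by count), with 1 point per library and the median as a black line. PRDM9, with 64 to 224 counts, stands above MECOM, PRDM13 and PRDM8, and PRDM7 has 2 to 16 counts.

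Among the other members, PRDM4, a zinc-finger protein first described as a partner of the p75 neurotrophin receptor, had a mean of 33.8 counts and 15 to 55 per library. PRDM11, a member without the tandem zinc-finger array of its relatives, had a mean of 31.3 counts (15 to 52), and PRDM15, which acts in pluripotent cells, a mean of 30.1 (15 to 58). PRDM10 had a mean of 25.6 counts (14 to 45). PRDM16, a regulator of brown fat and of haematopoietic stem cells, had 16.5 (6 to 29), and PRDM2 (RIZ), a histone H3 lysine methyltransferase that binds the retinoblastoma protein, had 14 (4 to 32). PRDM1 (BLIMP1), the repressor that drives B cells to plasma cells, had 12.6 (6 to 24). The highest of these counts, 58 for PRDM15, was below the lowest count of PRDM9, which was 64.

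Of 7 further family genes, MECOM (EVI1), a regulator of haematopoietic stem cells that is rearranged in leukemia, had the highest mean at 65.5 counts (27 to 109). PRDM13 and PRDM8, both known from neural development, had means of 51.1 and 44.9, and PRDM12, which is needed for pain-sensing neurons, had 33.7. After PRDM9 the next highest count in a library was that of MECOM in 14 of 18 libraries, of MECOM and PRDM13 alike in 2, and of PRDM13 and PRDM8 in 1 each. PRDM14, a regulator of primordial germ cells, had 0 to 7 counts and did not pass the filter.

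Since genes differ in length, their levels were also compared per kb of annotated span, on the CPM scale. PRDM9 spans 20.9 kb and had a mean level of 5.73 ± 1.58 CPM per kb (SD over 18 libraries), and PRDM7, at 20.8 kb, had 0.263 ± 0.102 CPM per kb. The level of PRDM9 was 21.8 times that of PRDM7 per kb. Per kb it was also 6.64 times that of PRDM4 (28.3 kb), 21.3 times that of PRDM15 (81.1 kb), 32.1 times that of PRDM10 (103.1 kb) and 35.7 times that of PRDM11 (141 kb). For PRDM2 (124.9 kb), PRDM1 (117.2 kb) and PRDM16 (369.4 kb) the factor was 71.9, 74.9 and 180.3. PRDM13, on a span of 8.73 kb, came closest to PRDM9 with 4.24 CPM per kb, followed by ZNF408 with 2.96 on 4.88 kb. These factors depend on dividing by the span, and counts followed the span only weakly, with a Spearman rho of 0.289 across 18448 protein-coding genes. The median count of protein-coding genes was 2.33 in the tenth with the shortest spans, 18.6 in the tenth around 21.5 kb and 22.5 in the tenth with the longest.

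The remaining members lie at chr6:105992690-106109938 (PRDM1), chr1:13700188-13825079 (PRDM2), chr12:107732871-107761137 (PRDM4), chr11:129899711-130002835 (PRDM10), chr11:45094159-45235109 (PRDM11), chr21:41798225-41879344 (PRDM15) and chr1:3069203-3438621 (PRDM16) in RefSeq GRCh38.p14. The spans of PRDM9, PRDM7, PRDM1, PRDM2 and PRDM15 overlap 0 other annotated genes. PRDM4, PRDM10 and PRDM11 overlap 1 each, which has no row in the table, and PRDM16 overlaps 8, of which 1 has a row.

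Among the 18448 protein-coding genes with a row and a span, PRDM9 stood at rank 15 by mean count, where the median gene had 18.1 counts and PRDM9 159.7. In single libraries its rank was between 4 and 113 (median 21). The highest ranks, 4, 4 and 5, were those of the MLL-AF4 libraries on day 3, and rank 113 was that of co-expression replicate 3 on day 28. Per kb of span PRDM9 stood at rank 753, at 15.2 times the median of 0.378 CPM per kb. The genes ranked directly above and below it were CNPPD1 with 5.73 and ATP6V1G2 with 5.72 CPM per kb.

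PRDM9 lies among few other rows. Positions were known for the 34285 rows (63%) whose symbol was in the RefSeq table, and only these could be placed. Within 2 Mb of its middle there were 10 other such rows with a median mean count of 2.58, and 0 of them had a higher mean count than PRDM9. The highest was CDH12, a cadherin gene, with 36.9 counts, which ends 653.8 kb before PRDM9. Ordered by their starts, the rows before PRDM9 were GCNT1P2 (926.3 kb before, 0.778 counts), PMCHL1 (1355 kb before, 3.22) and HSPD1P1 (1622 kb before, 1.39), and all 3 lie inside the span of CDH12, so that they can share its reads. After PRDM9 came CDH10, another cadherin gene, at 959 kb with 13.4 counts, BTG4P1 (1259 kb after, 0.167) and LINC02239 (1307 kb after, 1.94).

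PRDM7 lies near a chromosome end among many genes. Within 2 Mb there were 54 other placed rows with a median mean count of 19.6, and 41 of them had a higher mean count than PRDM7. The highest was SPG7, a mitochondrial protease gene, with 163.8. On the side before it lay URAHP (8.78 kb away, 13.8 counts), GAS8-AS1 (26.7 kb, 1.06) and DBNDD1 (36.7 kb, 19.3), and on the side after it TUBB8P7 (16.6 kb, 2.94), FAM157C (24.9 kb, 14.2) and RNU6-355P (67.3 kb, 0.111). The 4 neighbours that passed the filter, CDH10, DBNDD1, URAHP and FAM157C, were called in 0 of 12 comparisons each by edgeR. Over all genes, 0.904% of tests were called. CDH10 was lower in co-expression than in MLL-AF4 cells on day 3, without overlap, as for 19% of all genes. The log2 difference was -1.12 ± 0.38 (edgeR, adjusted p = 0.099). Against AF4-MLL cells it was -0.89 with overlap. On day 28 the log2 differences were -0.86 and -0.85, without overlap, as for 16% and 16.8% of all genes.

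**Figure D2:**
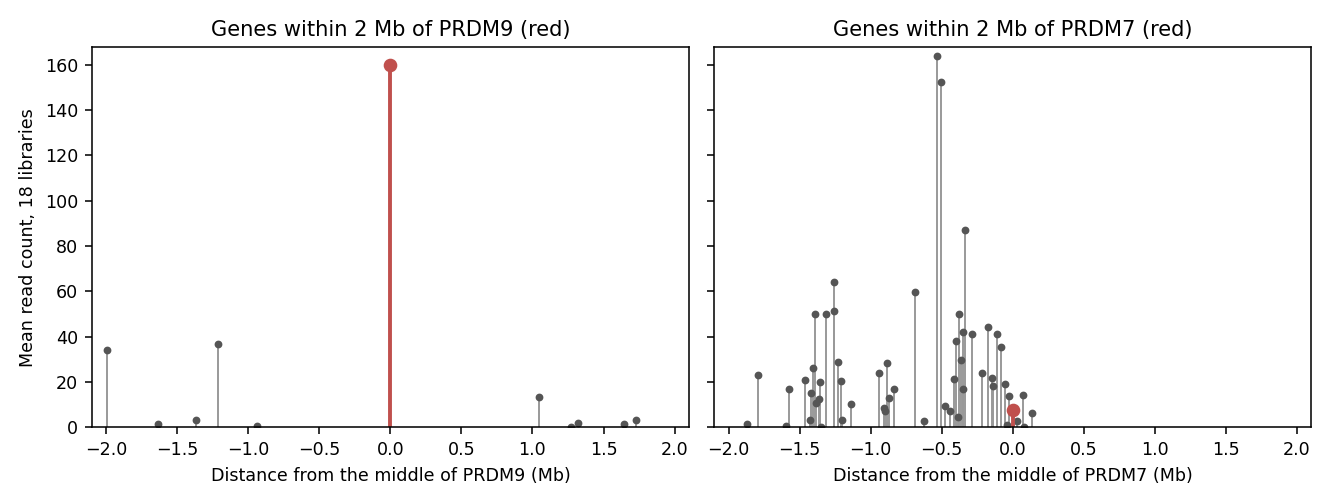
Mean read count over 18 libraries of every gene row with a known position within 2 Mb of PRDM9 (left) and PRDM7 (right), against the distance from the middle of the gene in Mb. PRDM9 (159.7 counts) is the highest of its window, whereas 41 of 54 rows around PRDM7 (7.83 counts) are higher than it.

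The level of PRDM9 differed between settings and days. In MLL-AF4 cells it was 194, 194 and 162 CPM on day 3 and 93.7, 89.3 and 103.5 on day 28. In AF4-MLL cells it was 118, 119 and 131 on day 3 and 131, 117 and 112 on day 28, and in co-expression cells 106, 121 and 106 on day 3 and 90.6, 89.6 and 82.1 on day 28. The MLL-AF4 libraries of day 3 were higher than all 15 others, and the co-expression libraries of day 28 included the lowest. Over the 18 libraries the log2 CPM of PRDM9 had a Pearson r of -0.587 with log2 total counts. With the mitochondrial share the r was -0.508. Mean raw counts of PRDM9 on day 3 were 161.3 (MLL-AF4), 161.7 (AF4-MLL) and 164.7 (co-expression). The MLL-AF4 libraries of day 3 had 352673 to 398640 nuclear counts. AF4-MLL replicate 2 of day 3, with 297567, was at 119 CPM. The part of depth in this order was not tested.

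Ordered by mean level, MLL-AF4 cells on day 3 came first with 183 ± 18.7 CPM (SD, n = 3), 60.6 CPM above the next group. AF4-MLL cells on day 3 (123 ± 7.26), AF4-MLL cells on day 28 (119.8 ± 9.55) and co-expression cells on day 3 (111 ± 8.57) followed, and neighbours among these 3 groups overlapped. MLL-AF4 cells on day 28 (95.5 ± 7.29) and co-expression cells on day 28 (87.4 ± 4.66) came last, overlapped each other and lay below the other groups. In these bulk cultures a change in accessibility per cell and a change in the share of cells in which the region was open cannot be told apart.

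**Figure D3:**
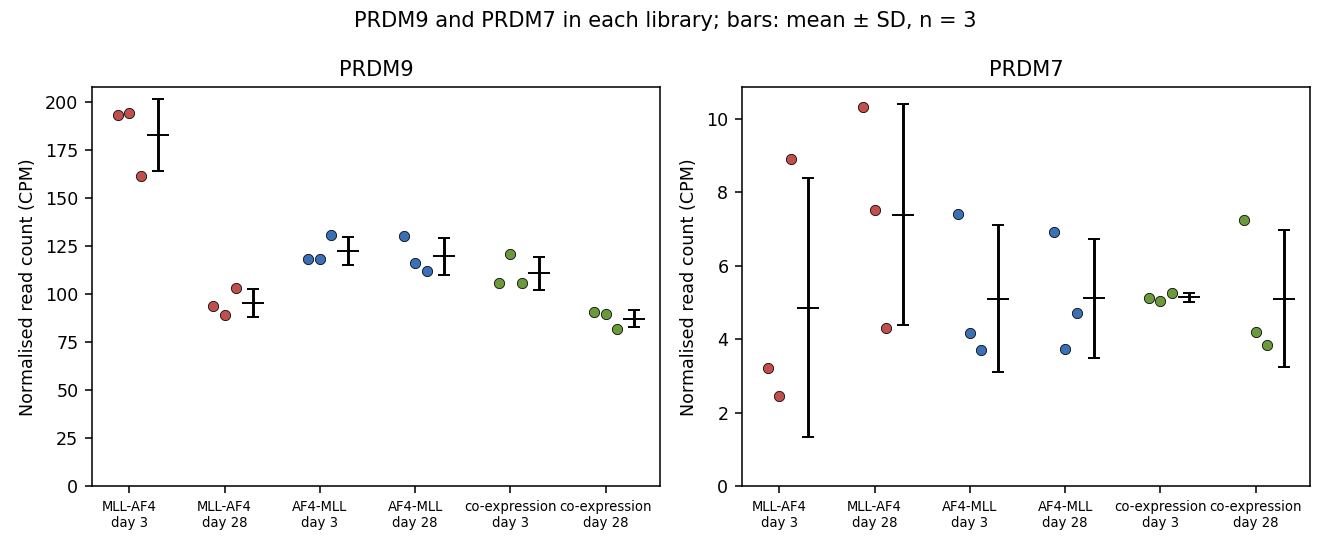
Normalised read counts (CPM, linear axes that start at 0 and differ between panels) of PRDM9 and PRDM7 in every library, with mean ± SD of 3 libraries per group. The mean of PRDM9 is 183 CPM in MLL-AF4 cells on day 3 and 95.5 on day 28, without overlap, and the groups overlap for PRDM7.

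From day 3 to day 28 the fitted log2 difference of PRDM9 was -0.95 ± 0.12 (SE) in MLL-AF4 cells, a fold of 0.518, and the groups did not overlap. In co-expression cells it was -0.32 ± 0.12, again without overlap, and in AF4-MLL cells -0.04 ± 0.11 with overlapping groups. Of all genes tested, 20.4%, 14.2% and 14% had groups that did not overlap in these comparisons (MLL-AF4, co-expression and AF4-MLL cells). The change over time in AF4-MLL cells was 0.91 ± 0.16 above that in MLL-AF4 cells, that in co-expression cells was 0.63 ± 0.17 above it, and co-expression and AF4-MLL cells differed by -0.29 ± 0.16. The mean share of mitochondrial counts went from 44.0% to 65.0% in MLL-AF4 cells, from 39.4% to 65.5% in co-expression cells and from 38.3% to 65.3% in AF4-MLL cells, and its part in these differences was not tested.

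On day 3, PRDM9 was lower in both other settings than in MLL-AF4 cells, by a log2 difference of -0.58 ± 0.12 in AF4-MLL cells and -0.73 ± 0.11 in co-expression cells, without overlap. Groups did not overlap for 14% and 19% of all genes tested in these comparisons. Co-expression and AF4-MLL cells overlapped on day 3, with a log2 difference of -0.15 ± 0.12, in a comparison where 16.4% of all genes did not overlap. On day 28 AF4-MLL cells were the highest, with a log2 difference of 0.34 ± 0.11 to MLL-AF4 cells, and that of co-expression cells to AF4-MLL cells was -0.44 ± 0.11, both without overlap. Groups did not overlap for 13.4% and 16.8% of all genes in these comparisons. Co-expression and MLL-AF4 cells overlapped on day 28, with a log2 difference of -0.10 ± 0.12, where 16% of all genes did not overlap. The settings share libraries between these comparisons, and PRDM9 was without overlap in 6 of 9. Its SD within a group was 0.11 on the log2 scale, and its group means spanned 1.06.

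PRDM7 showed no such order. Its level was 4.86 ± 3.53 CPM in MLL-AF4 cells on day 3 and 7.39 ± 3.01 on day 28, 5.10 ± 2.0 and 5.11 ± 1.63 in AF4-MLL cells, and 5.14 ± 0.118 and 5.10 ± 1.87 in co-expression cells (SD, n = 3). Its groups overlapped in all 9 comparisons, and its log2 differences ran from -0.56 to 0.60 with SEs of 0.41 to 0.53. For day 28 against day 3 in MLL-AF4 cells the log2 difference was 0.60, with a 95% interval of -0.36 to 1.55 and an adjusted p of 0.6 in edgeR's quasi-likelihood test. At these counts a change of the size seen for PRDM9 in the same direction lies outside this interval in MLL-AF4 cells. The 0.34 of PRDM9 (AF4-MLL against MLL-AF4 cells, day 28) also lay outside (PRDM7 -1.36 to 0.25). Its own 95% interval there, 0.11 to 0.56, overlapped that of PRDM7. Elsewhere the differences of PRDM9 without overlap lay inside the intervals of PRDM7. These were -0.32 over time in co-expression cells (-0.75 to 0.97) and -0.44 between co-expression and AF4-MLL cells on day 28 (-0.71 to 0.98). On day 3 they were -0.58 and -0.73 against MLL-AF4 cells (-0.865 to 1.2 and -0.96 to 1.09). There PRDM7 was too imprecise to compare. PRDM9 and PRDM7 were not tested against each other in any comparison.

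Of the 8 members other than PRDM9, 0 were called in any of 12 comparisons (edgeR's quasi-likelihood test, adjusted p under 0.05 over 17660 genes). Of all genes tested, 2.87% were called for day 28 against day 3 in MLL-AF4 cells, and 0.606% each in AF4-MLL and co-expression cells. On day 3, 0.142% were called between AF4-MLL and MLL-AF4 cells, 1.8% between co-expression and MLL-AF4 cells and 1.32% between co-expression and AF4-MLL cells. On day 28 these shares were 0.0793%, 1.15% and 1.69%, and for the change over time they were 0.311% (AF4-MLL against MLL-AF4), 0.277% (co-expression against MLL-AF4) and 0% (co-expression against AF4-MLL). At an unadjusted p under 0.05 there were 4 of 96 tests among the members, or 4.17%, against 10.7% over all genes. DESeq2 called 0 of the 96 and had 2 (2.08%) at an unadjusted p under 0.05, against 0.232% and 7.46% over all genes.

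The smallest adjusted p among these members was that of PRDM2 in MLL-AF4 cells. Its level there was 5.38, 4.89 and 8.91 CPM on day 3 and 12.7, 11.8 and 15.5 on day 28. The groups did not overlap, and the log2 difference was 1.02 ± 0.39 (edgeR, adjusted p = 0.15). PRDM2 was the only 1 of the 8 without overlap in this comparison, in which 20.4% of all genes were without overlap. Elsewhere its levels overlapped between the days, at 8.28 ± 3.25 and 9.87 ± 2.62 CPM (AF4-MLL) and 9.72 ± 2.59 and 12.1 ± 2.19 CPM (co-expression).

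PRDM15 came next, in co-expression cells. Its level was 16.7, 23.7 and 15.1 CPM on day 3 and 26.3, 30.1 and 28.2 on day 28, without overlap, as for 14.2% of all genes, and the log2 difference was 0.61 ± 0.21 (edgeR, adjusted p = 0.24). In AF4-MLL cells PRDM15 went from 17.2 ± 3.39 to 22.8 ± 3.94 CPM with overlap (log2 difference 0.48, adjusted p = 0.51 by edgeR), and in MLL-AF4 cells from 19.2 ± 0.862 to 24.7 ± 8.82. Neither difference of PRDM15 passed the test.

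On day 28 PRDM4 had 19.0, 21.7 and 24.4 CPM in co-expression cells and 28.6, 28.0 and 27.6 in MLL-AF4 cells. The groups did not overlap, as for 16% of all genes in that comparison, and the log2 difference was -0.42 ± 0.21 (edgeR, adjusted p = 0.40). PRDM10 and PRDM16 each had 1 comparison without overlap, both between co-expression and AF4-MLL cells, PRDM16 on day 3 with log2 -0.53, where 16.4% of all genes were without overlap, and PRDM10 on day 28 with log2 -0.21, where 16.8% were. PRDM1, PRDM7 and PRDM11 had 0. The log2 differences of PRDM1 ran from -0.30 to 0.39 and those of PRDM11 from -0.28 to 0.34.

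In MLL-AF4 cells the 8 other members had a median log2 difference of 0.23 from day 3 to day 28 (all genes tested 0.00), and 8 of 8 values were above 0, whereas 7 of 8 were below 0 with a median of -0.62 when only library size was used for scaling and the median of all genes moved to -0.85. PRDM9 was below 0 on both scales, with log2 differences of -0.95 and -1.80. The medians of the other members were 0.13 in AF4-MLL cells and 0.25 in co-expression cells, with 6 of 8 values above 0 in each, and with scaling by library size only 0 of 8 were above 0 in either.

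**Figure D4:**
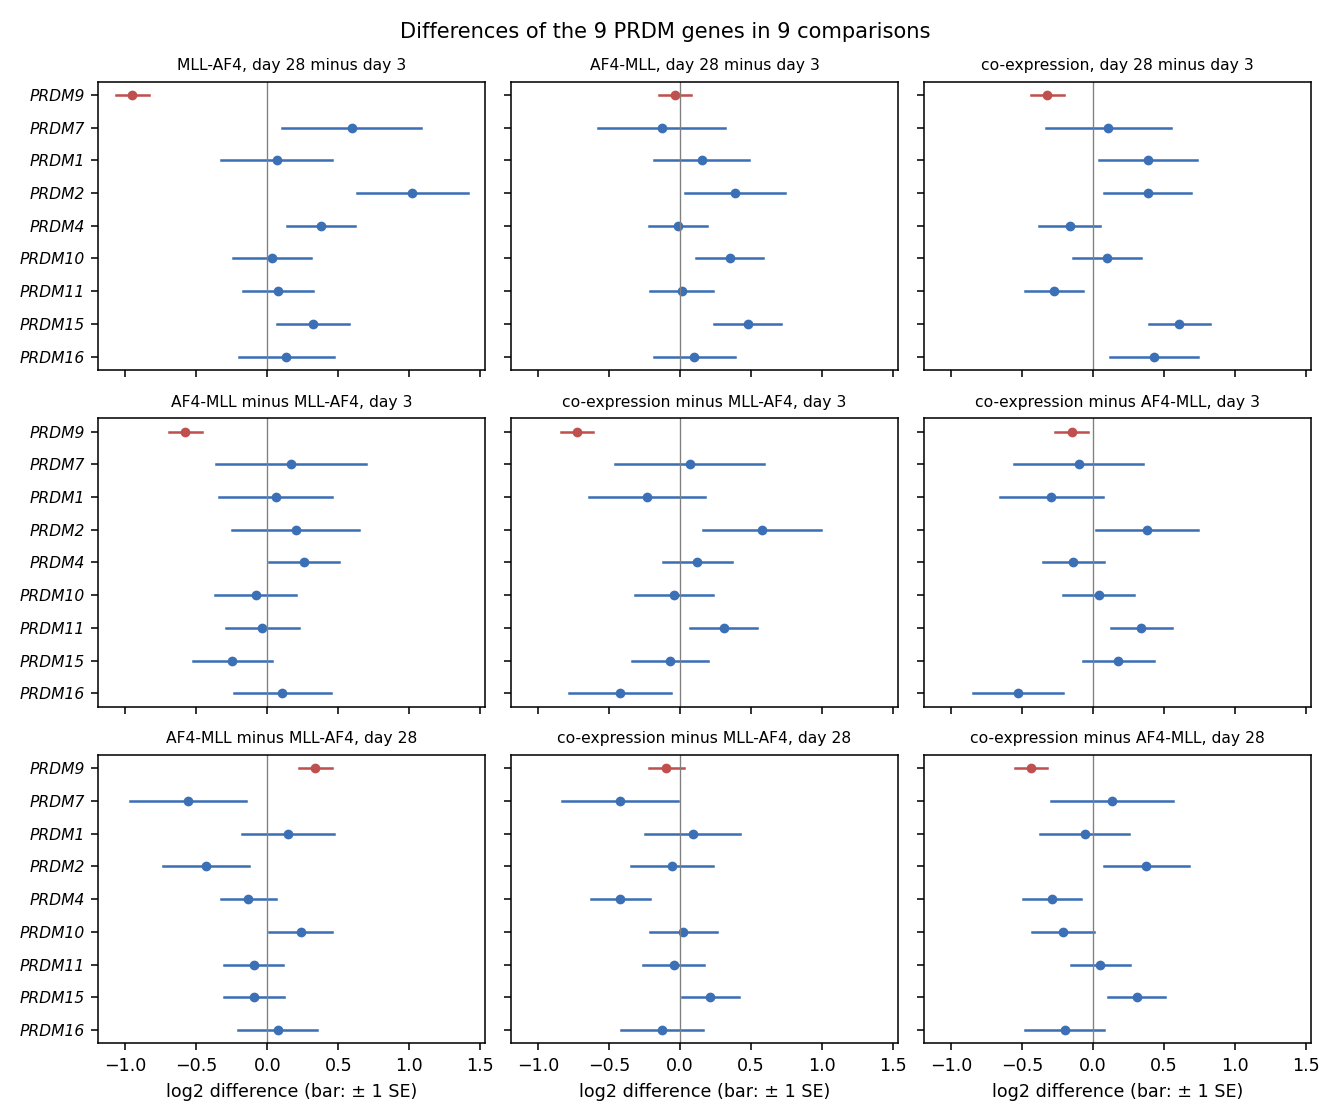
Fitted log2 differences (± 1 SE, n = 3 libraries per group) of the 9 PRDM genes in 9 comparisons, with PRDM9 in red. PRDM9 has the smallest SEs (0.11 to 0.12) and reaches -0.95 in MLL-AF4 cells, and of the other genes PRDM2 reaches 1.02 in the same panel.

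Of the 7 further family genes 6 passed the filter, and 0 of 72 tests were called by edgeR, with 7 (9.72%) at an unadjusted p under 0.05, against 0.904% called and 10.7% unadjusted over all genes. DESeq2 called 0 and had 3 (4.17%) at an unadjusted p under 0.05, against 0.232% and 7.46% over all genes. MECOM had the smallest adjusted p. On day 28 its level was 53.4, 58.1 and 53.1 CPM in AF4-MLL cells and 37.1, 37.9 and 47.4 in co-expression cells, without overlap, as for 16.8% of all genes, with a log2 difference of -0.49 ± 0.15 (edgeR, adjusted p = 0.069). PRDM13 had 45.0 ± 10.5 and 35.1 ± 3.21 CPM in MLL-AF4 cells on day 3 and day 28, with a log2 difference of -0.39 (edgeR, adjusted p = 0.29). PRDM12 had 17.8 ± 2.88 CPM in MLL-AF4 cells and 28.4 ± 3.95 in AF4-MLL cells on day 3 (log2 difference 0.67, adjusted p = 0.34 by edgeR). PRDM8 had its highest mean in co-expression cells on day 3, at 39.0 ± 1.12 CPM, and its lowest in MLL-AF4 cells on day 28, at 24.6 ± 5.57.

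The partners and successors of PRDM9 in meiotic recombination were followed as a list of 36 genes, which covers readers of its marks, proteins that make or repair meiotic double-strand breaks, and proteins of the chromosome axis and synapsis. Of these 21 passed the filter, and 1 of 252 tests was called by edgeR, with 27 (10.7%) at an unadjusted p under 0.05, against 0.904% called and 10.7% unadjusted over all genes. DESeq2 also called 1 and had 16 (6.35%) at an unadjusted p under 0.05, against 0.232% and 7.46% over all genes. The list's median log2 difference from day 3 to day 28 in MLL-AF4 cells was 0.24, where that of all genes was 0.00, and 1 of the 21 was called higher against 1.29% of all genes.

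The called gene was EWSR1, an RNA-binding protein that has been found with PRDM9 in meiotic cells and is best known from the fusions of Ewing sarcoma. Its level rose in MLL-AF4 cells from 28.3 ± 2.48 CPM on day 3 to 48.2 ± 5.39 on day 28 (SD, n = 3). The log2 difference was 0.74 ± 0.20 (edgeR, adjusted p = 0.015). When only library size was used for scaling, it was -0.11, where the median of all genes was -0.85. The call was lost without MLL-AF4 replicate 1 or 3 of day 28, or replicate 1 or 2 of day 3, with adjusted p of 0.068, 0.057, 0.1 and 0.078 by edgeR and log2 differences of 0.68, 0.69, 0.70 and 0.70. On the same days EWSR1 was at 38.6 ± 2.53 and 46.2 ± 5.22 CPM in AF4-MLL cells, and at 42.3 ± 4.80 and 42.8 ± 3.32 CPM in co-expression cells.

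CXXC1, a CpG-binding subunit of the SET1 methyltransferase complexes that can bind PRDM9, had a mean of 47.1 counts and 6.28 CPM per kb, close to the 5.73 of PRDM9. HELLS, a chromatin remodeller that works with PRDM9 at hotspots, had 35.4 counts, and PSMC3IP (HOP2), which helps recombinases to exchange strands, had 34.8. None of these 3 genes was called by edgeR in the 12 comparisons, where 0.904% of tests over all genes were called.

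Among the genes whose log2 CPM followed that of PRDM9 most closely over the 18 libraries, among 2167 with a mean of at least 50 counts, were AC099548.2 (Pearson r = 0.854), COQ6, an enzyme of coenzyme Q synthesis (0.846), SWT1 (0.838) and PPP1R12A-AS1 (0.838). The middle 90% of genes lay between -0.56 and 0.638. The 18 points share groups and depth, and with the group means subtracted the values were 0.162, 0.391, 0.362 and 0.301. COQ6 had 82.9 ± 7.37 CPM in MLL-AF4 cells on day 3 and 51.7 ± 8.72 on day 28, and SWT1 had 59.4 ± 1.56 and 41.0 ± 2.06. Both were highest in MLL-AF4 cells on day 3, as PRDM9 was. They were picked by their r to PRDM9 over these same libraries, so the shared group adds nothing to that r. Within the family the r to PRDM9 ran from -0.636 for PRDM2 to 0.38 for PRDM13, and was -0.351 for PRDM7.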

How the data were processed

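ATAC-Seq libraries were made by the authors with Nextera transposase from HEK293T nuclei. The authors deposited a table of raw counts per gene, whole numbers for 54425 rows and 18 libraries. The submitters' processing notes name bcl2fastq, Bowtie2, HTSeq and build GRCh38. The region counted per gene, duplicate removal, the fate of reads with several matches and any Tn5 offset are not given in the sources used here. Counts of genes that share sequence or overlap may therefore be shared.

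Counts were fitted in R 4.3.3 with edgeR 4.0.16 (TMM normalisation, filterByExpr with minimum count 10 and minimum total 15, quasi-likelihood F test, 6 groups, no covariate), and 17660 genes were tested in 12 comparisons: day 28 against day 3 in 3 settings, 3 pairs of settings on each day, and 3 interactions. The biological coefficient of variation was 7.48%. A gene was called at a Benjamini-Hochberg adjusted p under 0.05. The study's methods name DESeq2, which was run as an alternative (version 1.42.0). Log2 CPM used a prior count of 2. Gene spans, neighbours and promoter windows came from RefSeq tables of GRCh38.p14, and windows were aligned with Biopython 1.88. Scripts were tested on simulated data.

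Members and gene lists were chosen with earlier results of these data known. Named genes were all members, called genes of the family and meiotic lists or otherwise their 4 highest by mean count, those among the 5 with the highest r to PRDM9, 3 rows on either side of PRDM9 and PRDM7, and those ranked next to PRDM9 per kb. CDH12, SPG7, ZNF408 and PRDM14 were added after their values were seen. Some genes of these lists are not reported here and were left out of the counts. No pair of libraries of a group agreed within sampling noise, but the excess was small. The chi-square per gene, which is 1 under sampling noise alone, ran from 1.06 to 1.46. Alternatives were DESeq2, its size factors in edgeR, scaling by library size only, mitochondrial genes left out, no filter, a replicate block and each library left out.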

Additional observations from a re-analysis of the deposited data

How the results depend on the processing

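Scaling by library size only moved the day comparisons, since the median log2 difference of all genes became -0.85 (MLL-AF4), -1.03 (AF4-MLL) and -1.05 (co-expression). Calls became 14 for the other PRDM members (14.6% of their tests), 17 for the further family genes (23.6%) and 38 for the meiotic list (15.1%), against 20.1% of all tests under this scaling, the log2 difference of EWSR1 turned to -0.11 (adjusted p = 0.67 by edgeR), and those of PRDM9 from day 3 to day 28 became -1.80, -1.07 and -1.37. Relative to the median of all genes the last 3 were -0.95, -0.04 and -0.33. The same scaling gave PRDM9 -0.42 and -0.59 for AF4-MLL and co-expression cells against MLL-AF4 cells on day 3, and 0.73 and 0.43 for their changes over time against MLL-AF4 cells. Without the filter on low counts, co-expression against MLL-AF4 cells gave -0.60 on day 3 and 0.50 for the change over time. The cause of these last 2 was not tested. With group means subtracted, the r of AC099548.2, COQ6, SWT1 and PPP1R12A-AS1 to PRDM9 was 0.162, 0.391, 0.362 and 0.301.

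Leaving out each library gave 0 to 0 calls for the other members and for the further family, and 0 to 1 for the meiotic list (EWSR1 0.68 to 0.85). PRDM9 stayed within its replicate spread of 0.11 in these fits: -1.04 to -0.90, -0.10 to 0.02 and -0.36 to -0.26 over time in MLL-AF4, AF4-MLL and co-expression cells. On day 3 it ran from -0.66 to -0.53 (AF4-MLL against MLL-AF4), -0.81 to -0.68 (co-expression against MLL-AF4) and -0.21 to -0.09 (co-expression against AF4-MLL), and on day 28 from 0.28 to 0.39, -0.15 to -0.04 and -0.48 to -0.37. The changes over time differed by 0.85 to 1.00, 0.57 to 0.71 and -0.34 to -0.23.

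Replicate numbers did not pair the libraries: 0 of 45 same-number pairs had a correlation over 0.1 (-0.091 to 0.037), and 2 of 18 libraries correlated best with their own number. With a replicate block the members had 0 calls, the further family 0 and the meiotic list 1, PRDM9 in MLL-AF4 cells was at -0.95, and no call changed. Exon length was not run as an alternative to the span because the reference table used here gives no exons. Counts of 2 to 16 limit the precision of PRDM7.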
